A study of Homo sapiens with 2 samples.

Results

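The Ragulator complex and the Rag GTPases were examined as a set of 10 genes, LAMTOR1 to LAMTOR5, RRAGA to RRAGD and FLCN. The genes were chosen by name and not by a rule on measured values, but with earlier results of these data known. Their probes were found by current or former gene symbol, and 12 probes of 24456 gene probes, or 10 genes of 18549 genes with a detected probe, belonged to the set. RNA of MDA-MB-231 cells, a widely used line from a triple-negative breast tumour, was compared between an untreated culture (0 Gy) and one irradiated with 2 Gy a day for 4 days (2 Gy x 4), with 1 array each. Both were 3D laminin-rich ECM cultures on Matrigel and differed, per the labels, only in the radiation. The study asked how lysosomes travel to the cell periphery in cells that survive radiation, with BORC, a complex that recruits the lysosomal GTPase Arl8b, among its subjects. Total RNA was amplified and labelled with Cy5, and the 3D-Gene human chip (Toray) has 1 colour, so each probe gave 1 brightness per culture. With 1 array per group there was no replicate and no test, and every ratio given here is the 2 Gy x 4 array over the 0 Gy array. In RNA from whole cultures, fewer cells of a kind and less RNA per cell cannot be told apart.

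Ragulator is a scaffold of the products of LAMTOR1 to LAMTOR5 that is anchored in the lysosomal membrane. When amino acids are plentiful it holds a Rag heterodimer, RagA or RagB joined to RagC or RagD, and the active Rags recruit mTORC1 to the lysosome, where the kinase is switched on by Rheb. Folliculin, the FLCN product, acts with an FNIP partner to make RagC and RagD hydrolyse GTP, a step needed for mTORC1 to phosphorylate the transcription factors TFEB and TFE3 and hold them in the cytoplasm. Ragulator also binds BORC and restrains it when nutrients are scarce, and the LAMTOR2-LAMTOR3 pair serves as a platform for MEK1 and ERK on late endosomes.

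Each array held 27456 spots. The median blank spot, which carries no probe, read 12.2 units at 0 Gy and 13.6 at 2 Gy x 4, and the median gene probe read 57.9 and 51.9. A probe was called detected where it was brighter than 95% of blank spots, that is above 14.2 units at 0 Gy and above 16 units at 2 Gy x 4, and 93.4% and 91.5% of gene probes were detected. All 12 member probes were detected on both arrays, with spot intensities of 50.3 to 2734 at 0 Gy and 49.7 to 2776 at 2 Gy x 4, and none was saturated. All 5 markers of a mesenchymal triple-negative line were detected, among them VIM, and the oestrogen receptor gene ESR1 was detected on neither. The progesterone receptor gene PGR had its brightest spot at 14.69 and 15.03 units and was not detected on both arrays. The other 4 of the 6 luminal markers, GATA3, FOXA1, CDH1 and EPCAM, were detected on both, with EPCAM at 197.9 and 203.2 units. Of markers of other cells, 3 of 3 for fibroblasts, 3 of 3 for endothelium and 2 of 3 for leukocytes were detected on both arrays. The brightest of these was the fibroblast marker DCN, at 1010 and 947.6 units, and its normalized ratio was 0.901. The part of other cells in the members' values was not tested.

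The start regions of the members are shown because the Rag GTPases and FLCN control TFEB and TFE3, which recognise E-boxes with the core CACGTG, and because the study examined Sp1, a factor that recognises GC boxes. No binding was measured on these arrays. Windows of 250 bases before an annotated start were taken from RefSeq (GRCh38.p14) for 8 of the 10 genes, in 10 windows. RRAGA and RRAGD had no entry. The E-box core, which reads the same on both strands, lay in 4 of the 8 genes and in 4 of the 10 windows, beside 6.34% of 35116 windows of all genes. The GC box, searched as GGGCGG and its reverse complement CCGCCC, lay in 7 of the 8 genes and in 8 of the 10 windows, beside 42.6% of all windows, and LAMTOR5 had none. The 4 windows with an E-box are printed 5′ to 3′ on the strand of the gene, and the capitals mark E-boxes and GC boxes. They lie at chr11:72103298-72103547 on the minus strand for LAMTOR1, chr7:100148668-100148917 on the plus strand for LAMTOR4, chrX:55717499-55717748 on the plus strand for RRAGB and chr1:38859773-38860022 on the minus strand for RRAGC.
LAMTOR1: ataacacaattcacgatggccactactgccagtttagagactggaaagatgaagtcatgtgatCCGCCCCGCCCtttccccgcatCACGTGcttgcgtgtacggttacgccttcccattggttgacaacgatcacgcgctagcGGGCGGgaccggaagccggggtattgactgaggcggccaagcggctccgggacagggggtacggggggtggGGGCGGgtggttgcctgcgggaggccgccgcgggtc
LAMTOR4: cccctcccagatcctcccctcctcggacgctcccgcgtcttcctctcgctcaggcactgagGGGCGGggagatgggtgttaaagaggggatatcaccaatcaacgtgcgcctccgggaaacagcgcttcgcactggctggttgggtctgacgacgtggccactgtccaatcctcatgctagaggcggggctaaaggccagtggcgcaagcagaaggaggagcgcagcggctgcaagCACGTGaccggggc
RRAGB: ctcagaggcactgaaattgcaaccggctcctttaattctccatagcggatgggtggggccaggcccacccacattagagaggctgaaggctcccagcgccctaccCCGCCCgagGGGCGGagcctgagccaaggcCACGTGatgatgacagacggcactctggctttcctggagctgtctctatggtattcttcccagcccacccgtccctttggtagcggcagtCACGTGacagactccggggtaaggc
RRAGC: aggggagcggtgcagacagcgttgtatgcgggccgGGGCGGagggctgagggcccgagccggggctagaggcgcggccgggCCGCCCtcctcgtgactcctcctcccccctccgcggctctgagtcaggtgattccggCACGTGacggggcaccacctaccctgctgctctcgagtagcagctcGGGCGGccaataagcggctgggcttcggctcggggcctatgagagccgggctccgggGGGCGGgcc
The E-box began 165 bases before the annotated start in LAMTOR1, 14 bases before it in LAMTOR4 and 112 bases before it in RRAGC, and the 2 E-boxes of RRAGB began 115 and 25 bases before it. LAMTOR1 and RRAGC each held 4 GC boxes, of which 2 overlap in LAMTOR1, RRAGB held 2 and LAMTOR4 held 1. In the other windows, no E-box and no overlap of the motifs was found.

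No member gene, taken as the mean of its probes, differed between the arrays by as much as a ratio of 5 to 4 in the normalized values. Of the 2 RRAGD probes, 1 did, at 0.789. After background correction and quantile normalization, a step that gives both arrays the same distribution of values, the 10 gene ratios ran from 0.845 for RRAGD to 1.06 for RRAGC. Of the 10 genes, 7 were above 1 and 3 were below 1, and their median ratio was 1.02, beside 1.01 over all 18549 genes. The middle 95% of the ratios of all genes ran from 0.746 to 1.27, so every member lay inside it. By the size rule of 1.5-fold, 0 members were higher and 0 were lower, where 0.291% of all genes were higher and 0.965% were lower. By a looser rule, a ratio of at least 5 to 4, the members' counts were again 0 and 0, beside 3.04% of all genes higher and 4.59% lower. Beside shares this low, a count of 0 among 10 genes says little about the set.

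The value table that the authors deposited, which keeps a wider spread of ratios than the normalized values, gave the same counts. There 0 members passed 1.5-fold, beside 4.45% of 18187 genes higher and 7.02% lower, and 0 members passed the looser rule, beside 17.2% higher and 16.2% lower. The members ran from 0.838 for RRAGD to 1.12 for RRAGC, with a median of 1.07 beside 1.03 over all genes. Their standard deviation on the log2 scale was 0.127, and that of all genes was 0.403, a value that includes dim probes, whose ratios scatter more. In the normalized values the standard deviations were 0.105 and 0.181.

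The deposited spot intensities, before any scaling, were lower on the 2 Gy x 4 array for 11 of the 12 probes, as was the median gene probe. After normalization 5 of the 12 probes were below 1. To describe the scatter without replicates, each probe was set beside the 1000 detected probes nearest to it in mean signal. All 12 probes lay inside the middle 95% of the ratios of these neighbours, in the normalized values and in the value table. For the 10 brighter member probes, those of all members but RRAGB and FLCN, the normalized limits were 0.633 to 0.67 below and 1.35 to 1.37 above. A difference inside these limits could not be told from the scatter with 1 pair of arrays.

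**Figure D1:**
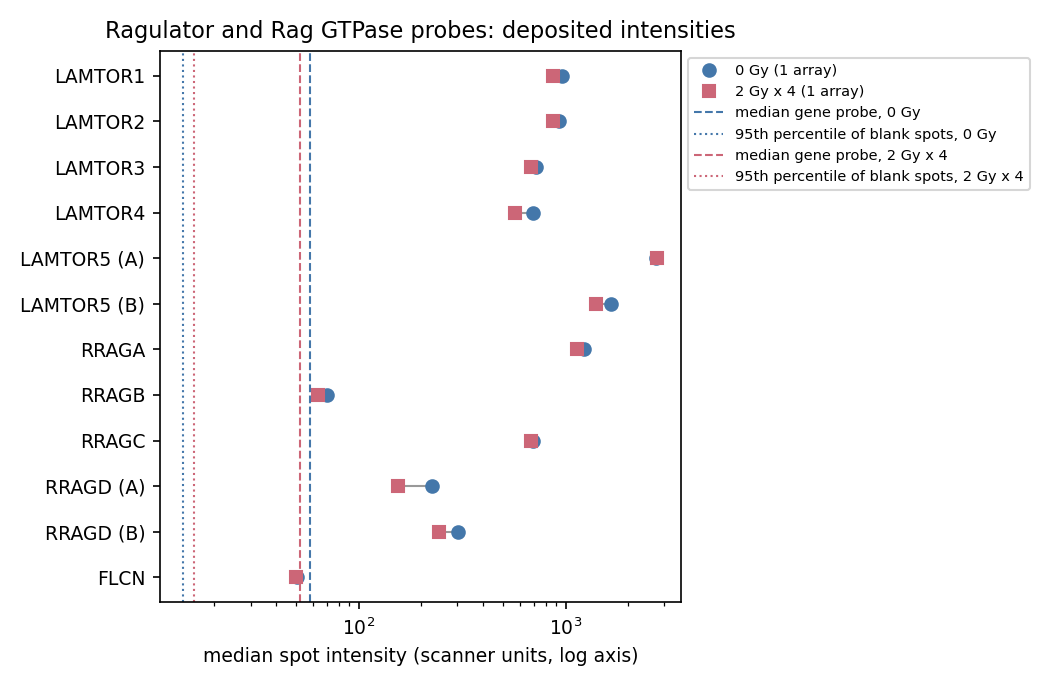
Median spot intensity of the 12 member probes in scanner units on a log axis, as deposited, with 1 circle for the 0 Gy array and 1 square for the 2 Gy x 4 array, and A and B for the 2 probes of a gene. Dashed lines give the median gene probe of each array and dotted lines the 95th percentile of its blank spots; all members lie above the dotted lines, and 11 of 12 squares lie left of their circle.

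**Figure D2:**
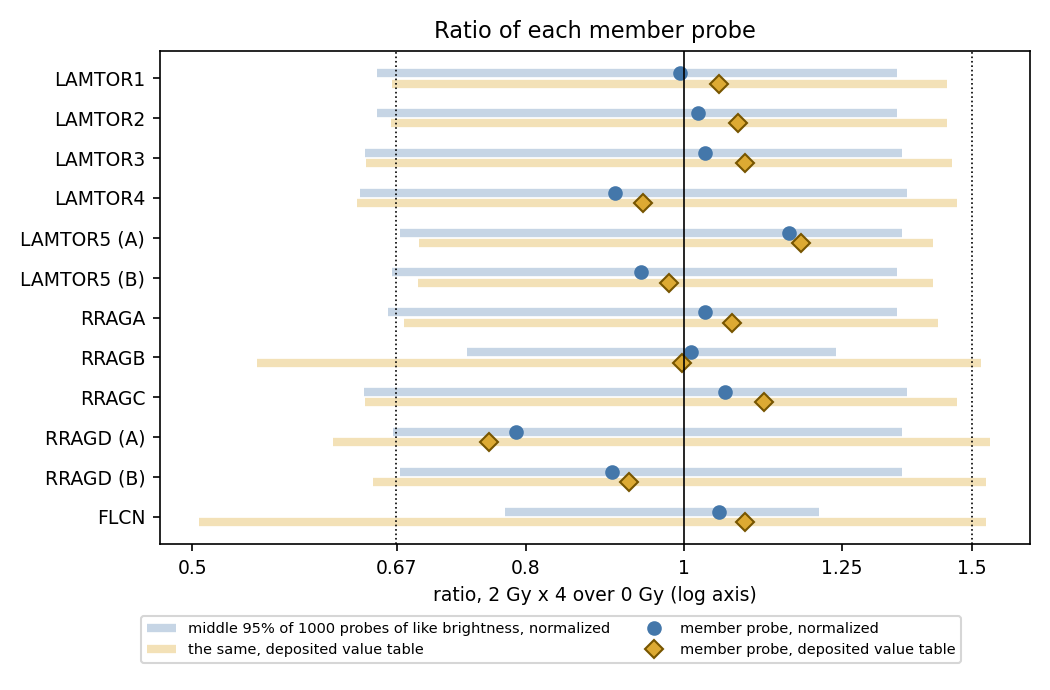
Ratio of the 2 Gy x 4 array over the 0 Gy array for each member probe on a log axis, from the normalized values (circles) and from the deposited value table (diamonds). Bars give the middle 95% of the ratios of the 1000 detected probes of like brightness and dotted lines mark 1.5-fold; all 12 probes lie inside their bars in both sets of values.

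LAMTOR1, whose lipidated product anchors the complex to the lysosomal membrane and wraps around the other subunits, was measured by 1 probe, listed on the chip as C11orf59. Its spot read 955.4 units at 0 Gy and 866.4 at 2 Gy x 4, which became 952.2 and 946.6 after normalization, a ratio of 0.994. The value table held 453 and 474.4, a ratio of 1.05. The normalized values of the gene that ties Ragulator to the lysosome were thus nearly the same, with 43.3% of the probes of like brightness below its ratio. Its spot lies in column 104, the last of the chip, where the local background was 1120 units at 0 Gy and 825.6 at 2 Gy x 4. The median ratio of the probes around it, within 11 rows and 8 columns, was 0.944, and 0.845 in the value table. With these local medians taken off, LAMTOR1 was at 1.05, and at 1.24 in the value table. The local background exceeded the spot itself at 0 Gy, the only such case among the 12 member probes, against 1.55% of gene probes on that array. Subtraction left no signal there, so the ratio of 2.1 under that setting rests on the positive value that the normexp model assigns to such a spot and is no measured fold.

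LAMTOR2 and LAMTOR3, which form a roadblock-fold pair that holds MEK1 and ERK, had like ratios. The probe for LAMTOR2, listed as ROBLD3, read 930 and 865.7 units, with normalized values of 928.8 and 946 and a ratio of 1.02, and the value table held 440.8 and 474, a ratio of 1.08. The probe for LAMTOR3, listed as MAP2K1IP1, read 721.1 and 677.9 units, with normalized values of 731.7 and 750.9 and a ratio of 1.03, and the value table held 340.4 and 369.5, a ratio of 1.09. The ratios of the pair differed by 0.01 on the log2 scale. Among 677 genes with 2 probes of at least 100 units, 2.07% had probes whose ratios differed by less, so the gap between these partner genes was small against the gap between probes of the same gene. With the values corrected for chip position it was 1.08-fold, and 1.21-fold in the value table so corrected, which 40% and 76.4% of the genes did not reach.

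LAMTOR4 and LAMTOR5 form the other roadblock pair of the complex. LAMTOR4, listed as C7orf59, read 692.6 and 568.3 units, normalized to 699.4 and 634.1, a ratio of 0.907. The value table held 326.8 and 308.5, a ratio of 0.944. This was the lowest ratio of the 5 Ragulator genes, and 25.5% of the probes of like brightness lay below it. It stayed below 1 under each of the 12 other processing settings, with values of 0.765 to 0.972. Of these, the brightest-probe setting and the 2 other filters on dim probes could not change a gene with 1 detected probe.

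LAMTOR5, also known as HBXIP for its binding to a hepatitis B virus protein, had 2 probes that pointed in opposite directions. Probe A (AHsV10003478) read 2734 and 2776 units, normalized to 2620 and 3044, a ratio of 1.16, and the value table held 1307 and 1537, a ratio of 1.18. Probe B (H200006765) read 1662 and 1408 units, normalized to 1612 and 1517, a ratio of 0.941, and the value table held 792.2 and 775.5, a ratio of 0.979. The probes differed by 0.30 on the log2 scale, or 1.23-fold, where the median gap over the 677 genes was 1.15-fold and 70% of them had a smaller gap. Their mean gave the gene a ratio of 1.05. Probe A also had a local background that went from 1349 to 2348 units, and subtracting it brought that probe to 0.401 and the gene to 0.603. Against LAMTOR4 the gene's ratio was 1.15-fold higher, a gap that 51.4% of the 2-probe genes did not reach between their own probes. Corrected for chip position the gap was 1.11-fold. In the value table so corrected it all but vanished, with LAMTOR4 at 0.972 and LAMTOR5 at 0.976.

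RRAGA and RRAGB encode the Rag subunits that bind GTP in the active heterodimer and are close relatives. RRAGA read 1228 and 1134 units, normalized to 1209 and 1243, a ratio of 1.03, and the value table held 584 and 623.4, a ratio of 1.07. RRAGB read 70.06 and 63.49 units, normalized to 105.7 and 106.5, a ratio of 1.01, and the value table held 27.75 and 27.7, a ratio of 0.998. Both genes were near 1, with ratios 0.03 apart on the log2 scale. Corrected for chip position, the gap was 1.05-fold, and 1.14-fold in the value table so corrected, where RRAGB was at 0.875. Of the 2-probe genes, 23.9% and 59.2% had a smaller gap between their own probes. The RRAGB probe lay close to the median gene probe, and its neighbours of like brightness ran from 0.548 to 1.52 in the value table, so a difference inside those limits could not be told from the scatter. For RRAGA, subtraction of a local background of 682.6 and 816.9 units lowered the ratio to 0.726.

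RRAGC and RRAGD encode the partner subunits, which carry GDP in the active heterodimer and on which FLCN acts. RRAGC read 697.6 and 676.8 units, normalized to 706.5 and 749.3, a ratio of 1.06, and the value table held 329.1 and 368.9, a ratio of 1.12. It was the highest of the 10 genes in both sets of values and stayed above 1, from 1.04 to 1.12, under each of the 12 other settings. As for LAMTOR4, the brightest-probe setting and the 2 other filters on dim probes could not change it.

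RRAGD had the lowest ratio of the set, and both of its probes were below 1. Probe A (H300017643) read 226.8 and 154.4 units, normalized to 255.7 and 201.8, a ratio of 0.789, and the value table held 103 and 78.3, a ratio of 0.76. Probe B (H300018436) read 300.2 and 243.6 units, normalized to 328 and 296.7, a ratio of 0.904, and the value table held 138.3 and 127.9, a ratio of 0.925. The gene's mean ratio was 0.845, or -0.24 on the log2 scale. Of the probes of like brightness, 8% lay below probe A and 24.1% below probe B. Both probes therefore stayed within the scatter of their neighbours.

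The RRAGD probes lie in columns 84 and 91, in a zone of the chip where probes of all genes were lower on the 2 Gy x 4 array. The columns number 104, and in the last 26 the median ratio of detected gene probes was 0.943, beside 1.05 in the first 26 columns. In the value table these medians were 0.839 and 1.14. Among the probes around RRAGD probe A, within 11 rows and 8 columns, the median ratio was 0.937, and around probe B it was 0.931. With these local medians taken off, probe A was at 0.842, probe B at 0.972 and the gene at 0.905. In the value table the same step turned the direction of the gene, from 0.838 to 1.03, with probe A at 0.94 and probe B at 1.12. The ratio of RRAGC over that of RRAGD was 1.26-fold in the normalized values and 1.34-fold in the value table, and 73% and 76.5% of the 2-probe genes had a smaller gap between their own probes. Corrected for chip position, the gap was 1.15-fold and 1.05-fold, and 63.4% and 22.2% of those genes had a smaller one.

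**Figure D3:**
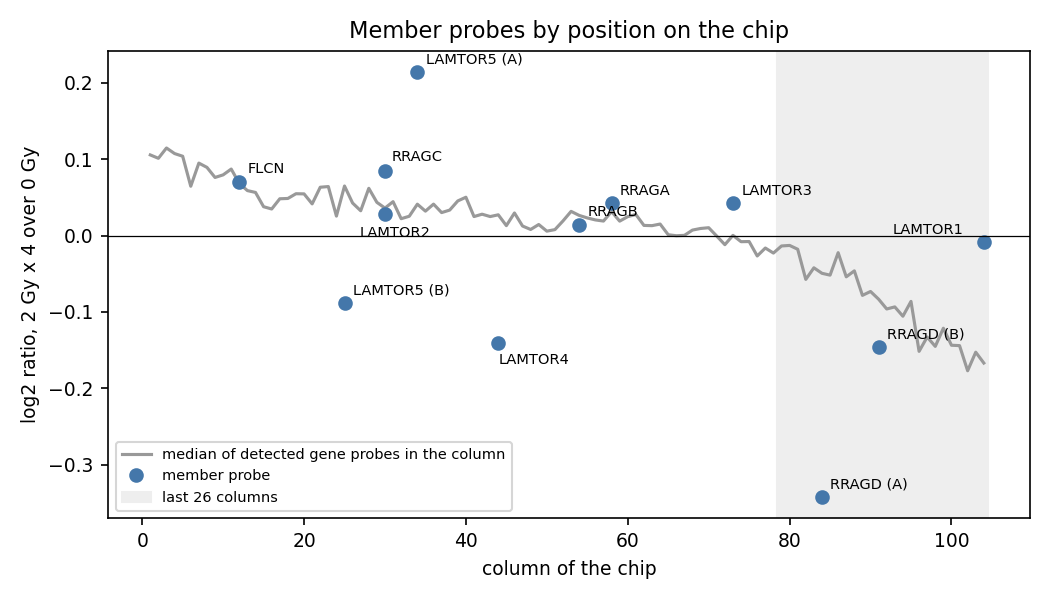
Log2 ratio of the normalized values of the 12 member probes by column of the chip, with the grey line giving the median of the detected gene probes in each column and the shaded band the last 26 columns. The line falls from left to right, and RRAGD A, RRAGD B and LAMTOR1 are the member probes in the shaded band.

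FLCN, the GTPase-activating protein for RagC and RagD and the gene mutated in Birt-Hogg-Dubé syndrome, was measured by 1 probe that lay below the median gene probe on both arrays. It read 50.32 and 49.68 units, normalized to 87.17 and 91.86, a ratio of 1.05, and the value table held 18.27 and 20, a ratio of 1.09. The signal was nearly equal on the arrays, and 70.1% of the probes of like brightness lay below its ratio. Background correction here added a constant of 50 units, which pulls the ratios of dim probes towards 1, and without that constant the ratio was 1.13. In the value table the neighbours of FLCN ran from 0.505 to 1.53.

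The genes whose start windows hold an E-box had normalized ratios of 0.994 for LAMTOR1, 0.907 for LAMTOR4, 1.01 for RRAGB and 1.06 for RRAGC. The 4 genes whose windows hold none had ratios of 1.02 for LAMTOR2, 1.03 for LAMTOR3, 1.05 for LAMTOR5 and 1.05 for FLCN. Both groups lay around 1, and no difference was tested.

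Members near 1 fell on either side of it with the scaling, as did other genes. In the normalized values 7 members were above 1 and 3 below, and 45.5% of all genes were below 1. With median scaling 6 members were above and 4 below, beside 35.1% of all genes below, and with a loess curve 4 were above and 6 below, beside 51% of all genes below. Scaling to the 75th percentile kept the split of 7 and 3. The plot of all settings shows that only subtraction of the local background moved members past 1.5-fold, LAMTOR1 upward to 2.1 and LAMTOR5 downward to 0.603. Under that setting 2.51% of all genes were at least 1.5-fold higher and 3.16% lower, and the middle 95% of their ratios widened to 0.622 to 1.5. Over all spots the local background followed the spot intensity closely, with a Spearman correlation of 0.943 at 0 Gy and 0.929 at 2 Gy x 4 over 27450 spots of 1 array each, given as a description.

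**Figure D4:**
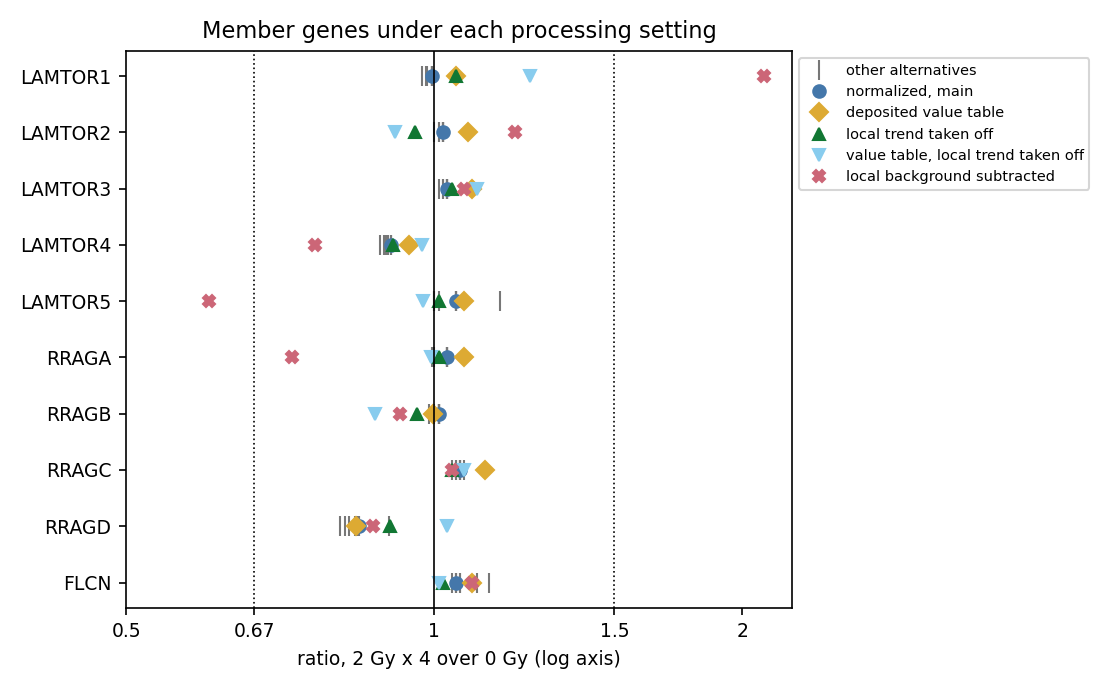
Ratio of the 2 Gy x 4 array over the 0 Gy array for each of the 10 genes on a log axis under the main setting (circles) and 12 others, with dotted lines at 1.5-fold. Most settings keep the genes near 1, and the crosses for local background subtraction move LAMTOR1 to 2.1 and LAMTOR5 to 0.603.

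The partners of the complex also had a median near 1 in the normalized values. Of 46 genes in 9 lists around the Rag GTPases, 44 were detected, 24 had ratios above 1 and 20 below, and 0 passed 1.5-fold in either direction in the normalized values, beside the shares over all genes given for that rule. Their median ratio was 1.02, beside 1.01 over all genes. In the value table their median was 1.06, beside 1.03 over all genes. There 1 partner was at least 1.5-fold higher and 0 were lower, beside 4.45% and 7.02% of all genes. With local background subtraction, 4 of the 44 passed 1.5-fold, NPRL2 at 1.55 and SESN2 at 1.69 upward, and MAP2K1 at 0.66 and KXD1, a BORC gene, at 0.413 downward, beside the wider shares of all genes under that setting. No probe was named CASTOR2 or MAP2K2. The paper reported from its microarray that the BORC genes BLOC1S2 and BORCS5 rose after radiation by more than the size rule used here. By quantitative PCR it also described radiation-induced mRNA of both genes, which Sp1 knockdown lowered. Its ChIP-qPCR found more Sp1 at both promoters after radiation. Those measurements are separate from these arrays. In the gene values given here neither reached 1.5-fold, with BLOC1S2 at 1.21 and BORCS5 at 1.06 after normalization. These are means over 2 probes of BLOC1S2 and 3 of BORCS5. The brighter BLOC1S2 probe alone was at 1.45, and the other probe was lower. In the value table BLOC1S2 was at 1.22 and BORCS5 at 1.47. Value-table ratios of the single probes of these genes are not given here. The cause of this difference from the paper was not tested.

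Among the partners of FLCN, which bind it in the lysosomal folliculin complex, FNIP1 was at 1.2 and FNIP2 at 0.948. All 3 genes of GATOR1, the complex that inactivates RagA and RagB, were above 1, from 1.04 for NPRL2 to 1.12 for NPRL3, and with the position correction DEPDC5 was at 0.987. Of GATOR2, which opposes GATOR1, 4 of 5 genes were below 1, with MIOS lowest at 0.927 and WDR59 highest at 1.05. The 3 KICSTOR genes measured here, whose products act in a complex that holds GATOR1 at the lysosome, ran from 0.926 for KICS2 to 1.05 for ITFG2. None of these normalized ratios reached the looser rule. In the value table it was passed by 4 genes of these lists, FNIP1 at 1.35 and DEPDC5 at 1.33 upward and FNIP2 at 0.746 and KICS2 at 0.749 downward, where 17.2% and 16.2% of all genes did. In the value table corrected for chip position, FNIP1 was at 1.24, DEPDC5 at 1.13, FNIP2 at 0.727 and KICS2 at 0.85. ITFG2 was at 1.31 there.

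Of the 7 detected amino acid sensors and lysosomal inputs, 4 were above 1 and 3 below. SESN2, a leucine sensor that binds GATOR2, had the highest normalized ratio of all 44 partners. Its spot read 552.5 units at 0 Gy and 697.8 at 2 Gy x 4, a normalized ratio of 1.37 and a value-table ratio of 1.47. Of the probes of like brightness, 97.6% lay below it, and their middle 95% ended at 1.36, so SESN2 lay at the edge of that scatter. Its ratio was 1.34 with median scaling and 1.33 with a loess curve and with the position correction. CASTOR1, an arginine sensor, was the lowest of the list after normalization, with spots of 530 and 383.9 units, a ratio of 0.813 and a value-table ratio of 0.828, where SAMTOR was lower at 0.782. SESN3 reached 1.89 in the value table, from spots of 14.59 and 17.42 units that lay barely above the blank spots, and was at 1.03 after normalization. The value-table median of this list was 1.3, beside 1.03 over all genes. The looser rule was passed there upward by SESN2, SESN3, SLC38A9 at 1.3 and LARS1 at 1.34. SAMTOR passed it downward, beside 17.2% of all genes upward and 16.2% downward. In the value table corrected for chip position, SLC38A9 was at 1.18, LARS1 at 1.08, SESN2 at 1.34 and SESN3 at 1.53. SAMTOR was at 0.809 and CASTOR1 at 0.785 there.

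Among mTORC1 and its inhibitors, TBC1D7, a subunit of the TSC complex, was highest at 1.21. In the value table the looser rule was passed upward by TBC1D7 at 1.28, TSC1 at 1.35 and TSC2 at 1.29. TFEC and BORCS5, of other lists, also passed it upward, and no gene of these lists passed it downward. Of all genes 17.2% passed it upward and 16.2% downward. With the value table corrected for chip position, TBC1D7 was at 1.08, TSC1 at 1.11 and TSC2 at 1.16, short of the looser rule. BORCS5 was at 1.41 and BLOC1S2 at 1.26 there. RHEB, the GTPase that switches on mTORC1 at the lysosome, was lowest of all partners after normalization at 0.805, with spots of 4496 and 3212 units. Its value-table ratio was 0.826, and FNIP2, KICS2, SAMTOR and MTOR were lower there. Of the probes of like brightness, 12.1% lay below RHEB, and with local background subtraction its ratio was 1.12. Among the MiT-TFE transcription factors, to which TFE3 also belongs, TFEB was at 0.967 and MITF at 1.05. TFEC, with its brightest spot at 14.64 and 16.78 units, barely above the blank spots, was at 1.02 after normalization and reached 1.56 in the value table corrected for chip position. Of the kinases on the LAMTOR2-LAMTOR3 platform, MAP2K1, the MEK1 gene, was at 0.853 and MAPK3 at 1.05. Of the 8 BORC genes 5 were above 1 and 3 below, with BLOC1S2 highest at 1.21 and BLOC1S1 lowest at 0.929. The brighter of the 2 BLOC1S2 probes was at 1.45, above 99% of the probes of like brightness, whose middle 95% ended at 1.36. BORCS5, at 1.06 after normalization, was the highest BORC gene in the value table at 1.47, where BLOC1S2 was at 1.22. Of the 3 BORCS5 probes, 2 were detected on both arrays, and these gave a normalized ratio of 1.13. Without the constant added in background correction the BORCS5 ratio was 0.977, so its size and direction depended on the processing.

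**Figure D5:**
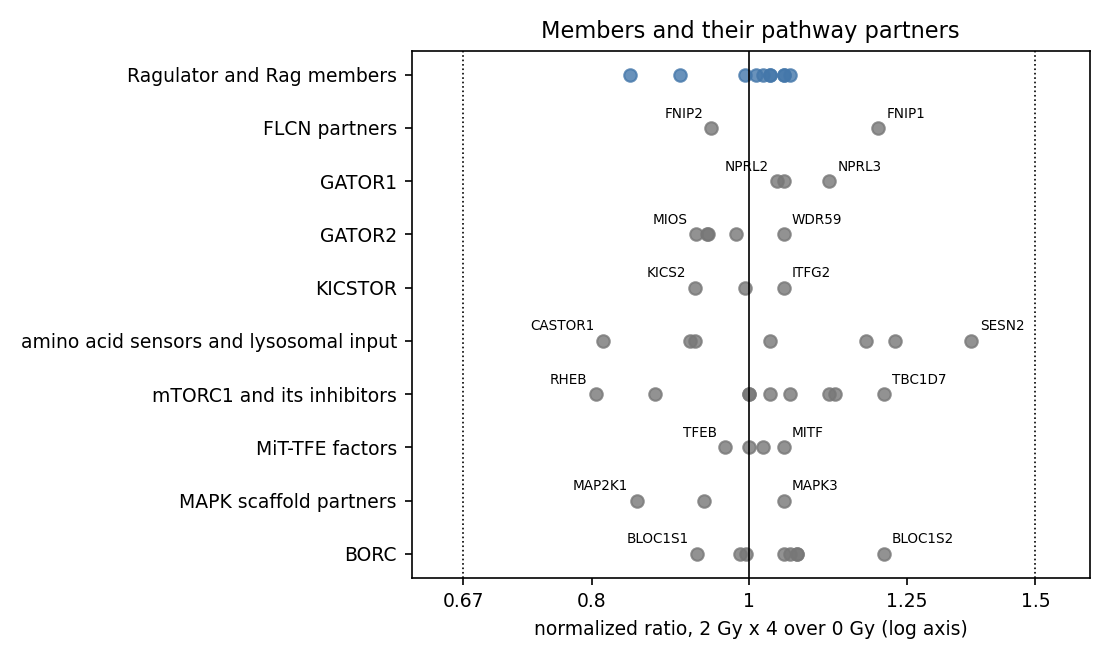
Normalized ratio of the 2 Gy x 4 array over the 0 Gy array on a log axis, with 1 point per gene, for the 10 members (top line) and the 44 detected partners in 9 lists, and dotted lines at 1.5-fold. No gene passes 1.5-fold; the partners run from RHEB at 0.805 to SESN2 at 1.37, and the members from 0.845 to 1.06.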

How the data were processed

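Gene expression was measured on 1 array of untreated and 1 array of irradiated MDA-MB-231 cells. The authors deposited for each array the median spot intensity, on a linear scale, neither scaled nor background-subtracted, and a series table of processed intensity values. The steps behind that table were not given in the sources used here. Its values match spots from which the average of blank spots (their middle 90%) was taken off, rescaled to a median of 25, within 0.408% at 0 Gy and 0.486% at 2 Gy x 4 for values above 10.

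Intensities were corrected with limma 3.58.1 in R 4.3.3 (normexp, offset 50) and quantile-normalized over the 24456 gene probes, without blank and control spots and the 4 gene probes the scanner marked as poor. Other steps used Python 3.11.15, numpy 2.4.6, pandas 2.3.3 and matplotlib 3.10.9. Platform annotation, updated through RefSeq, named 21703 probes, the scanner name 965 more, among them that of LAMTOR1, and 1788 stayed unnamed. A gene's value is the log2 mean of its probes detected on at least 1 array. A probe's scatter is the middle 95% of the ratios of the 1000 detected probes nearest in mean signal. The number of arrays limits the precision, and the call was a size rule of 1.5-fold. The main normalization and the correction for chip position were tested on simulated data with planted changes. The planted fold changes were larger than those of the members, so that test does not show how well small changes are recovered. The text names every member, and of each partner list the genes with the highest and lowest normalized ratio and any at 1.5-fold in the normalized values or the value table. KXD1, DEPDC5, TFEC, BORCS5, SAMTOR, MTOR, SLC38A9, LARS1, TSC1 and TSC2 were named after their values were seen. One listed partner gene is not reported here. Members and lists were chosen with earlier results of these data known. The alternatives were 3 other scalings, 3 other background corrections, the value table, a correction for chip position of the main values and of the value table, the brightest probe, 2 other filters on dim probes, and other fold rules.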

Additional observations from a re-analysis of the deposited data

How the results depend on the processing

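The results were recomputed under 12 other settings, with a 2-fold rule and the looser rule as well. With local background subtraction 1 member was at least 1.5-fold higher (LAMTOR1, 2.1) and 1 was at least 1.5-fold lower (LAMTOR5, 0.603). Of all genes 2.51% were that much higher and 3.16% lower under that setting, and LAMTOR1 had no signal above its local background at 0 Gy. Both counts were 0 under each of the other settings and rules, which for the 2-fold rule follows from 0 at 1.5-fold. The 2 other filters on dim probes could not change any member, since all 12 member probes were detected on both arrays. The brightest-probe setting could change only LAMTOR5 and RRAGD. The median log2 difference of the members was 0.032 and ran from -0.029 with local background subtraction to 0.098 in the value table. Of 120 gene ratios recomputed, 114 stayed within 1 standard deviation of the scatter of probes of like brightness. The 114 include the ratios that could not change. The 6 others were LAMTOR1 at 2.1, LAMTOR5 at 0.603 and RRAGA at 0.726 with local background subtraction, and LAMTOR1 at 1.24, RRAGB at 0.875 and RRAGD at 1.03 in the value table corrected for chip position. The cause was not tested. No replicate could be left out, and no paired analysis was possible because each group held 1 array.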
